A study of Mus musculus with 2 samples.

Results

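The genes of the mouse major histocompatibility complex (MHC, the H2 complex) and of antigen presentation were examined for regions with enhancer activity in activated T helper 1 (Th1) cells. A region was counted for a gene when that gene had the nearest protein-coding transcription start, within 100 kb of the region's centre. The 54 genes were the 34 annotated protein-coding genes whose symbol starts with H2- and 20 further genes of antigen processing, class I-like presentation and MHC gene regulation. In all, 63 of the 14994 regions in the authors' deposited table were given to 33 of these genes.

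STARR-seq measures regulatory activity by placing genomic fragments in a reporter so that an active fragment is transcribed into its own RNA, which is then counted. Here the reporters sat on an episome introduced by transient transfection into primary Th1 cells of C57BL/6NJ mice. Per the labels, the cells of both libraries received interleukin-2, interleukin-12 p70 and an antibody to interleukin-4 for 4 days, and antibodies to CD3e and CD28 for 3 days. The stated doses were 10 ng/mL of each interleukin (read for replicate 1), 0.25 ug/mL of the CD3e antibody, and 1 ug/mL of the CD28 and 2 ug/mL of the interleukin-4 antibody (both read for replicate 2). The single group held 2 biological replicates with the same donor identifier, and no untreated or other T cell group was analysed here. The 1 table of regions combined both libraries. No value below therefore carries an error from replicates, and its read depth is not known. The cell identity was not checked here, because the table holds no expression values. The activity of a fragment on an episome is not a measure of the expression of the gene next to which it lies.

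Each region carries a signed effect, a score given by the authors. Neither its log base nor its scaling and direction could be read from the labels or headers, and a positive effect is read as output above input. The table lists regions with an adjusted p under 0.01, an estimated 13.1% of those tested, so a gene without a listed region may have been tested and not called, or not tested. All effects and adjusted p-values below are from the authors' deposited table.

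MHC class I molecules, made of a heavy chain and beta-2 microglobulin, carry peptides from the cytosol to the surface of most nucleated cells, where CD8 T cells read them. Class II molecules present peptides from endosomes to CD4 T cells and are made mainly by dendritic cells, B cells and macrophages, and mouse T cells express little or none. Class I promoters hold an NF-kB site and an interferon-stimulated response element, followed by an SXY module, which class II promoters share, and which is bound by the RFX complex, CREB-family factors and NF-Y. The coactivators NLRC5 (class I) and CIITA (class II) act through that module, and interferon gamma, the hallmark cytokine of Th1 cells, induces both.

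The promoter sequences show how several of those elements recur upstream of class I genes that differed widely in effect. Sequences are from RefSeq's GRCm38 (mm10) assembly, 5′ to 3′ on the gene's strand. Capitals mark matches to NF-kB (GGGNNTTCC), the core of the interferon element (AGTTTC, then NN, then TT) and IRF (GAAA, then NN, then GAAA). They also mark TGACG, the letters of the X2 core, the full CRE (TGACGTCA), NF-Y (CCAAT or, on the other strand, ATTGG) and RFX (AGCAAC). All were searched on both strands. No RFX match is marked in the class I sequences, and H2-T22 and B2m have no NF-kB match. In H2-Q4 and H2-T22 TGACG comes after the marked ATTGG, whereas an X2 box comes before it. H2-K1 was chosen as the classical gene, H2-Q5, H2-Q6 and H2-Q7 for the highest promoter effects, H2-Q4 as their single-copy relative, and H2-T22 and B2m as single-copy promoters with effects above 1. The H2-T22 region also held the interferon element core at -188 bp and an IRF match at -186 bp from its start. Both begin before the printed stretch and so are not marked.
H2-K1, chr17:34000348-34000527, minus strand: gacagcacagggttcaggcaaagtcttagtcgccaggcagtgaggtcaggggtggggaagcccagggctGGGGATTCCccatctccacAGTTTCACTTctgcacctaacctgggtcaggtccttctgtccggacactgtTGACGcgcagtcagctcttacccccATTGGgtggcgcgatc
H2-Q4, chr17:35379437-35379616, plus strand: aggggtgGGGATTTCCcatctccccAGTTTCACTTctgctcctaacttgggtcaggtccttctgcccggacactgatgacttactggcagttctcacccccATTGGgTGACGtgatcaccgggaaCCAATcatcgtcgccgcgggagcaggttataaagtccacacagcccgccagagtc
H2-Q5, chr17:35393916-35394066, plus strand: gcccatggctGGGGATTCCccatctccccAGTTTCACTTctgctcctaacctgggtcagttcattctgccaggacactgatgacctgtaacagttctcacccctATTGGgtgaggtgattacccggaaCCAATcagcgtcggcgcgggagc
H2-Q6, chr17:35424670-35424849, plus strand: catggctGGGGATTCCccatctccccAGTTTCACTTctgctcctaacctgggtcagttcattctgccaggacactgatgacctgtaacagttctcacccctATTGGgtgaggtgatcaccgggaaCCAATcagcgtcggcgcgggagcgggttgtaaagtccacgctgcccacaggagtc
H2-Q7, chr17:35438975-35439154, plus strand: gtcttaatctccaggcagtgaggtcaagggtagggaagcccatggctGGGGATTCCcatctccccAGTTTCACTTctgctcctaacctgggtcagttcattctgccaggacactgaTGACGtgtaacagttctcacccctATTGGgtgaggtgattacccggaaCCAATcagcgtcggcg
H2-T22, chr17:36042748-36042927, minus strand: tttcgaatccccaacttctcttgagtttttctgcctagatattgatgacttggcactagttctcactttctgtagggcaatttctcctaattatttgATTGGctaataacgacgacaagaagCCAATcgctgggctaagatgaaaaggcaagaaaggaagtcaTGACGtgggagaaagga
B2m, chr2:122147506-122147685, plus strand: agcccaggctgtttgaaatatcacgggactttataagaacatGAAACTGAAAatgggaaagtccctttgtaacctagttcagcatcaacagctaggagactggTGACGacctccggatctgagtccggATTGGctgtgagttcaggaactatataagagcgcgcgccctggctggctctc

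Class II promoters and the class II-like module in an upstream region are shown next, with the promoter of Psmb8, which held a full CRE. The upstream region of H2-Aa is printed on the strand on which TGACG is followed by ATTGG, opposite to the gene.
H2-Aa promoter, chr17:34287824-34288003, minus strand: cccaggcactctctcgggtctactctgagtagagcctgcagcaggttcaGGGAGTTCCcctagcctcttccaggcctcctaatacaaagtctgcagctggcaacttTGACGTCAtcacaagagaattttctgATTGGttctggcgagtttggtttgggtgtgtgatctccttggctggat
H2-Aa upstream region, chr17:34291676-34291850, plus strand: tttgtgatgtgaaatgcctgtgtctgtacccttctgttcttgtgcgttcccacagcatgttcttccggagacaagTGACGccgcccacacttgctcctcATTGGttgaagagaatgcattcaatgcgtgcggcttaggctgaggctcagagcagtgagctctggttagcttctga
H2-Eb1, chr17:34305701-34305866, plus strand: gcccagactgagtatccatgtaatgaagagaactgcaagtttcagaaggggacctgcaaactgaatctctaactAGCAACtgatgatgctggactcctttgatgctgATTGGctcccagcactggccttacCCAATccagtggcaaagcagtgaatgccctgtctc
Psmb8, chr17:34197610-34197720, plus strand: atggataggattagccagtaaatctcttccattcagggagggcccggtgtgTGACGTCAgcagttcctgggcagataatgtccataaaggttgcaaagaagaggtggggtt

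The 1 member with a negative effect lay across the boundary of intron 1 and exon 2 of H2-Q10 and is printed for contrast. Its capitals mark an SP match (GGGCGG, here on the other strand), and none of the elements above matched in it.
H2-Q10 exon region, chr17:35470326-35470475, plus strand: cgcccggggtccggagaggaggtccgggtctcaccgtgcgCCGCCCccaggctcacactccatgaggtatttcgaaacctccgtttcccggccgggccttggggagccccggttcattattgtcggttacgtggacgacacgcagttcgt

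Of the 63 member regions, 62 had effects above 0 and 1 had an effect below 0. The positive share was 98.4% (95% Wilson interval 91.5 to 99.7%, which covers counting over regions alone), beside 80.7% of all 14973 listed regions on chromosomes 1 to 19, X and Y. GC content was unequal between these sets: the members spanned 44.0 to 68.0%, and among all listed regions in that range 91.4% were positive. The median effect was 0.92 for members and 0.73 for all listed regions. Of the members 9 had an effect over 2, which is 14.3%, beside 5.52% of all listed regions. Members were split almost evenly by place, with 32 at promoters (centre within 1000 bp of an annotated start of any gene) and 31 distal. At promoters 31 of 32 were positive, beside 75.1% of all listed promoter regions, and of the distal members 31 of 31 were positive, beside 86.9%. The role of GC content in these shares was not tested.

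Median effects were higher over multi-copy than over single-copy regions, among members and among all listed regions. A region was called multi-copy when the 300 bp around its centre aligned to at least 2 places of the genome, itself included, at an identity of 95% or more across 240 bp or more. Among members 16 of 63 were multi-copy (25.4%), beside 5.86% of all listed regions. The median effect was 2.01 over the 16 multi-copy and 0.84 over the 47 single-copy members, beside 2.11 and 0.72 over all listed multi-copy and single-copy regions. At this identity each of the 9 members with an effect over 2 was multi-copy, and none of the 47 single-copy members exceeded 2, beside 2.54% of all listed single-copy regions. At an identity of 98% or more, a setting chosen for this comparison after the data were seen, 3 of the 9 were multi-copy, namely the regions over the starts of H2-Q5, H2-Q6 and H2-Q7. The other 6 counted as single-copy there, the highest with 2.74. They were 10.3% of the 58 single-copy members, beside 3.49% of all listed single-copy regions with an effect over 2. The medians there were 2.66 over 5 multi-copy and 0.91 over 58 single-copy members, beside 2.80 and 0.73 over all listed multi-copy and single-copy regions. Single-copy and multi-copy below refer to the 95% identity. The treatment of reads that match several copies is not stated in the labels or headers, and the part of copy number in the effects was not tested.

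**Figure D1:**
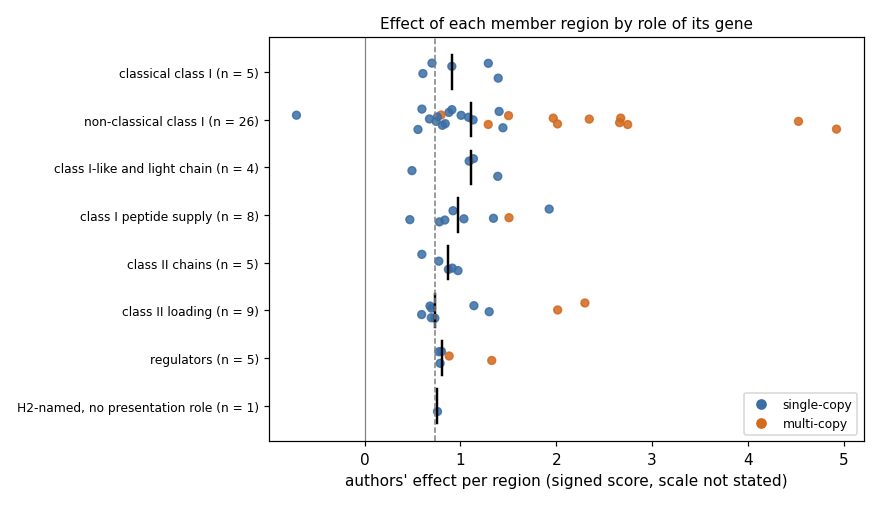
Effect of each of the 63 member regions (x axis, signed score) by the role of the gene with the nearest start (rows). Each point is a region, blue if single-copy and orange if multi-copy; black bars are the medians of a role and the dashed line is the median of all listed regions (0.73). The points above 2 are multi-copy at 95% identity and belong to non-classical class I or class II loading genes, and 1 point is below 0.

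The classical class I heavy chains H2-K1 and H2-D1, which present peptides to CD8 T cells, each had a positive region over the start. The 5 regions of the pair had a median effect of 0.91. The H2-K1 region (chr17:34000001-34000750) had an effect of 1.39 (adjusted p 5.4e-09). The H2-D1 region (chr17:35262626-35263200) had an effect of 1.29 (adjusted p 2.1e-08). Both were single-copy and lay above the median of all listed regions, with 10.5% and 12.2% of listed regions higher. The NF-kB match of H2-K1 began 111 bp upstream of its start, whereas that of H2-D1 began 193 bp downstream of the annotated start, inside its annotated 5′ UTR, and is not printed.

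The remaining regions of these genes were lower. A 50 bp intergenic region upstream of H2-D1 (chr17:35258251-35258300, centre 4455 bp away) had an effect of 0.61 (adjusted p 1.1e-04). Downstream of H2-K1, the start of H2-K2, annotated as a pseudogene, had an effect of 0.70 (adjusted p 3.2e-04, chr17:33978601-33979225). A further region there at the start of a long non-coding RNA had 0.91 and an adjusted p of 8.9e-06 (chr17:33981176-33981525). The H2-K2 start is given to H2-K1 because pseudogene starts were not used to assign regions.

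Non-classical class I genes, whose proteins are less polymorphic and often present to specialised lymphocytes, held 26 of the members. These were given to 13 of 22 such genes, beside 43.0% of all protein-coding genes with a listed region. The median was 1.11, with 11 multi-copy. The highest effects of all members were at H2-Q promoters, which lie upstream of genes for Qa-2 and related proteins. The H2-Q6 promoter (chr17:35424301-35425175) had 4.92 with an adjusted p of 5.5e-14, the region over the start of H2-Q5 (chr17:35393726-35394475) had 4.53 with an adjusted p of 2.7e-11, and the H2-Q7 promoter (chr17:35438826-35439550) had 2.66 with an adjusted p of 9.0e-15. H2-Q5 is annotated as a polymorphic pseudogene, so its region was given to H2-Q4. In the 200 bp holding the shared elements, H2-Q5 and H2-Q6 were 99.0% identical, H2-Q5 and H2-Q7 98.01%, and H2-Q6 and H2-Q7 97.0%. Each of these regions had 3 copies, namely the 3 promoters themselves. The H2-Q4 promoter (chr17:35379151-35380400), 82.3 to 83.3% identical to them over the same stretch, was single-copy and had an effect of 1.13 (adjusted p 5.9e-06). Near-identical promoters had effects from 2.66 to 4.92, while that of the single-copy relative was below those of H2-K1 and H2-D1, and the table gives no error by which to compare them.

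The order and spacing of the elements were nearly constant across these class I promoters. From the first base of the NF-kB match, the interferon element began 18 or 19 bp on in each of the 7 regions that held the pair, which were those over the starts of H2-K1, H2-D1, H2-K2, H2-Q4, H2-Q5, H2-Q6 and H2-Q7. ATTGG began 93 to 95 bp on in each of these except H2-K2, which had CCAAT at 93. A second NF-Y match began 117 to 119 bp on in the same regions except H2-K2. TGACG lay at 69 or 70 bp in H2-K1, H2-D1 and H2-Q7, at 100 bp in H2-Q4, and was not matched in this stretch of H2-Q5, H2-Q6 or H2-K2. The highest promoters, H2-Q6 and H2-Q5, thus lacked the TGACG match that H2-K1, H2-D1 and H2-Q7 held. The pair of H2-K2 came with the lowest effect of the 7 (0.70).

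**Figure D2:**
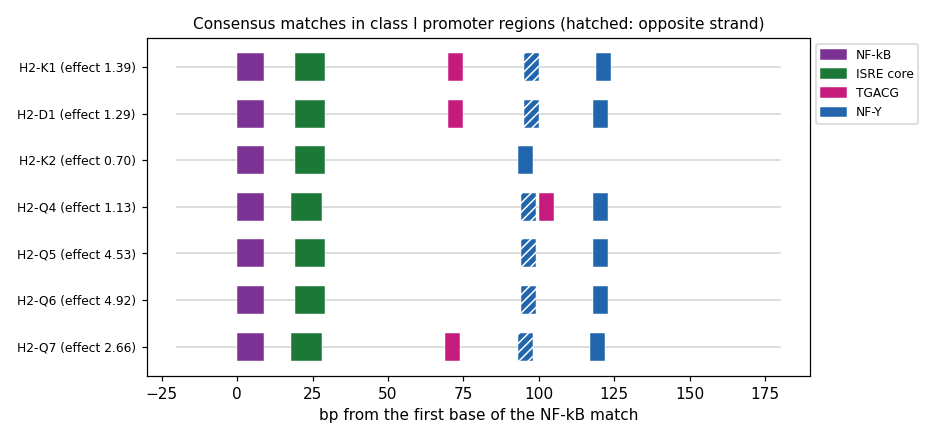
Positions of consensus matches in 7 class I promoter regions, in bp from the first base of the NF-kB match (x axis), with each region's effect beside its name (rows). Boxes are matches to NF-kB, the interferon element core (ISRE core), TGACG and NF-Y, hatched where the match is on the strand opposite to the NF-kB match. The NF-kB and ISRE boxes line up in all 7 rows, and the TGACG box at 69 to 70 bp is present for H2-K1, H2-D1 and H2-Q7.

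An intergenic element repeated through the H2-Q cluster had effects near that of the H2-Q7 promoter and below those of H2-Q5 and H2-Q6. Its listed copies were 4237 bp upstream of the H2-Q6 start (2.74, adjusted p 8.5e-11, chr17:35420551-35420675), 4188 bp from the H2-Q5 start (2.67, adjusted p 1.4e-08, chr17:35389901-35389975) and 24609 bp upstream of H2-Q1 (2.34, adjusted p 1.6e-06, chr17:35295851-35296025). These had 5, 6 and 4 copies, and the other matches without a listed region included 1 at chr17:35465652-35465952 in the same cluster. A 50 bp region next to the last one, 25 bp away, had 1.97 (adjusted p 1.3e-04). Copies of nearly the same sequence were therefore listed at some places and not at others.

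The other H2-Q regions ranged from -0.71 to 1.40. The regions given to H2-Q2 had effects of 1.40 (distal) and 1.08 (661 bp from the start of the pseudogene H2-Q3). A sequence with 2 copies downstream of the H2-Q1 start had 1.29, and a single-copy region upstream of it 0.88. A 3-copy region 1442 bp upstream of H2-Q7 had 0.80, the lowest multi-copy effect among members. H2-Q10, which encodes a secreted class I protein made in liver, had the negative region printed above (-0.71, adjusted p 0.0024, chr17:35470326-35470475) and a positive one 1014 bp upstream of its start (0.84, adjusted p 0.0026, chr17:35468801-35469350). The negative region had a GC content of 65.3% and a CpG ratio (observed over expected) of 1.06, was single-copy and was 150 bp wide.

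Among the H2-T genes, the promoters of H2-T23, H2-T22 and H2-T24 had effects above 1, while the region at a pseudogene start near H2-T3 was below 1. H2-T23, which encodes Qa-1, the ligand of the NKG2A receptor, had 1.50 (adjusted p 2.4e-07, chr17:36031601-36032900), with another copy, 96.3% identical, at the pseudogene H2-T-ps, where a listed region had 1.35. The H2-T22 promoter, whose protein is a ligand of some gamma delta T cells, had 1.44 (adjusted p 6.6e-10, chr17:36042376-36043150) and was single-copy. The region also covers the start of Gm6034, another protein-coding gene, so its effect cannot be assigned to either gene. The H2-T24 promoter had 1.01, and regions 18562 and 19175 bp downstream of its start had 0.56 (adjusted p 0.0019, chr17:36001701-36002225) and 0.60 (adjusted p 6.6e-04, chr17:36001251-36001450). Both regions given to H2-T3 lay upstream of its start, with 0.75 and 0.68, near the median of all listed regions.

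H2-M3, which presents formylated bacterial peptides, had a single-copy promoter region with an effect of 0.76 (adjusted p 3.8e-04, chr17:37270101-37271200). The other H2-M regions were distal: 0.81 and 0.91 near H2-M10.1, and 2.01 at a sequence with 2 copies 8410 bp from H2-M10.5. No region was given to H2-M1, H2-M2, H2-M5, H2-M9, H2-M10.2, H2-M10.3, H2-M10.4, H2-M10.6 or H2-M11.

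**Figure D3:**
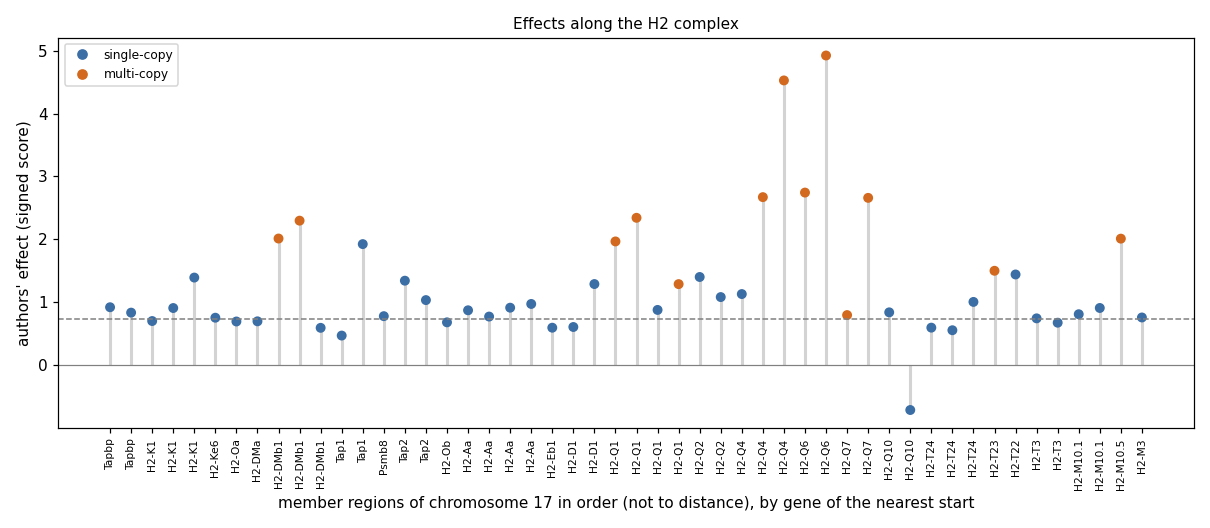
Effect (y axis, signed score) of the 50 member regions of chromosome 17 in their order on the chromosome (x axis, not to distance), each labelled by the gene with the nearest start. Blue points are single-copy, orange points multi-copy, and the dashed line is the median of all listed regions (0.73). The highest points sit in the H2-Q cluster, and the 1 negative point belongs to H2-Q10.

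The class I light chain and class I-like genes had 4 single-copy regions, from 0.49 to 1.39 with a median of 1.11. B2m, the light chain of every classical class I molecule, had a promoter region of 1.14 (adjusted p 1.1e-07, chr2:122147426-122147975). It held an IRF match at -138, TGACG at -77 and ATTGG at -52 bp from its start, as printed above. A second B2m region, 1039 bp downstream, had 0.49 and an adjusted p of 0.0042 (chr2:122148626-122148825). Cd1d1, which presents lipids to natural killer T cells, had a promoter region of 1.09, and the start of its duplicate Cd1d2, annotated as a polymorphic pseudogene, had 1.39 (adjusted p 3.7e-08, chr3:86986501-86987350). Mr1, which presents vitamin B metabolites to MAIT cells, had no region.

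Genes that supply peptides to class I molecules held the highest single-copy member. The region over the Tap1 start (chr17:34187201-34187950) had an effect of 1.93 (adjusted p 1.2e-11), with 5.94% of listed regions higher. TAP1 and TAP2 form the transporter that carries peptides into the endoplasmic reticulum. The same region also covers the start of Psmb9, a subunit of the immunoproteasome transcribed in the opposite direction. The effect therefore cannot be assigned to either gene, and no other listed region covered the Psmb9 start. A 50 bp region 50 bp away lay in a UTR of Psmb9 and was given to Tap1 by the nearest-start rule. That region had 0.47, the lowest positive effect of all members (adjusted p 0.0017, chr17:34187101-34187150).

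The Tap2 promoter region had 1.34 (adjusted p 1.2e-08), and a region 15423 bp downstream of the Tap2 start had 1.04. Tapbp encodes tapasin, which bridges the transporter and class I molecules. Its start lay in a region of 0.92 (adjusted p 8.0e-07, chr17:33919426-33919800), and a 50 bp region 25 bp further on had 0.84 (adjusted p 2.6e-06, chr17:33919826-33919875). Psmb8, another immunoproteasome subunit, had 0.78 (adjusted p 1.6e-04, chr17:34197576-34198450), with the full CRE at -129 bp from its start.

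Erap1, the aminopeptidase that trims peptides in the endoplasmic reticulum, was represented by 1 region 22018 bp upstream, at the start of a long non-coding RNA with 2 copies (1.51, adjusted p 3.8e-09). No region was given to Psmb10, Psme1, Psme2 or Tapbpl. In all, 5 of the 10 genes of this role had a region, beside 43.0% of all protein-coding genes. The median over their 8 regions was 0.98.

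The class II chains had 5 positive, single-copy regions, all below 1, with a median effect of 0.87. Their range, 0.60 to 0.98, lay within that of the classical class I regions (0.61 to 1.39) except at its lower end. H2-Aa, the alpha chain of I-A, had 4 regions. The promoter had 0.77 (adjusted p 4.5e-05, chr17:34287651-34288225), the region 3940 bp upstream 0.92 (adjusted p 4.5e-06, chr17:34291676-34291850), the region 8402 bp upstream 0.98 (adjusted p 2.3e-06, chr17:34296026-34296425), and a 50 bp region 1716 bp downstream 0.87 (adjusted p 0.0010, chr17:34286051-34286100). The H2-Eb1 promoter had 0.60 and an adjusted p of 0.0070 (chr17:34305701-34306100), the lowest among member regions that covered the start of a list gene. H2-Ab1 and H2-Eb2 had no region.

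TGACG followed 24 to 26 bp on by ATTGG, the spacing seen between the X2 and Y boxes, was found in 3 of the 4 H2-Aa regions. At the promoter it began 74 bp upstream of the start, and the 2 upstream regions held it on the opposite strand. Over whole regions, this pair was present in 8 members (12.7%) and in 47 of all listed regions (0.314%), so that 8 of these 47 were members. The other members with it were the regions over the starts of H2-K1, H2-D1, H2-Q7, H2-M3 and B2m. Within 500 bp of a start, it occurred at 104 of 21827 protein-coding genes (0.476%). In the list it occurred at 6 of 54 genes, namely B2m, H2-Aa, H2-D1, H2-K1, H2-M3 and H2-Q7, and each of these had a listed region over its start. How many of the 104 genes had such a region is not given here, so no rate for the pair follows. H2-Eb1 held an RFX match and both NF-Y matches but no TGACG upstream of its start.

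Class II peptide loading is served by the invariant chain Cd74, the editors H2-DM and H2-O, and the protease Ctss, which cleaves the invariant chain. The 9 regions of this role had a median of 0.73. The Cd74 promoter region had 0.73 and an adjusted p of 3.8e-04 (chr18:60803351-60804025), near the median of all listed regions. The H2-DMa promoter had 0.70, and regions near H2-Oa and H2-Ob, the H2-O chains, had 0.70 and 0.68. Ctss intronic regions 14602 and 15539 bp downstream of its start had 1.14 and 1.30 and were single-copy.

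The 2 highest regions of this role were a duplicated intronic sequence in the paired genes H2-DMb1 and H2-DMb2. The copy in the H2-DMb1 intron had 2.30 (adjusted p 1.6e-08, chr17:34158826-34159250) and the copy in the H2-DMb2 intron 2.01 (adjusted p 2.9e-11, chr17:34150151-34150450). Both held the AP-1 consensus TGANTCA. In the 300 bp around the centre it was present in 12.9% of the 31 distal members, beside 26.9% of all listed distal regions. The copy in the H2-DMb2 intron also held a match to the interferon element core. H2-DMb2 had no region by the nearest-start rule, because its copy lay nearer to the H2-DMb1 start. Another region, downstream of H2-DMb1, was single-copy and had 0.60 (adjusted p 9.6e-04, chr17:34169426-34169525).

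Of the regulators, Nlrc5 and Rfx5 had regions and Ciita, Rfxank and Rfxap had none given to them. The median over the 5 regions was 0.80. Nlrc5, the class I coactivator, had a promoter region of 0.80 (adjusted p 1.3e-04, chr8:94433551-94434525) and a region in a coding exon 19612 bp downstream of 0.79 (adjusted p 6.3e-04, chr8:94492076-94492675). Rfx5, a subunit of the RFX complex, had a promoter region of 0.77 (adjusted p 9.2e-04, chr3:94953651-94954475). The other regions given to it, with 0.88 and with 1.33 (adjusted p 2.2e-04, chr3:94944076-94944200), lay in exons of Selenbp1 and matched Selenbp2 as well. The Rfxank start lay inside a region given to its neighbour Borcs8 (0.71), which is not a member. H2-Ke6, an enzyme gene that carries the H2- prefix and has no role in presentation, had a promoter region of 0.76 (adjusted p 3.9e-04, chr17:34027326-34028175).

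Counted by gene, 33 of 54 (61.1%) had a listed region, beside 43.0% of the 21827 protein-coding genes. All 33 had a positive region, beside 36.7% of protein-coding genes, and 1 of 54 had a negative one, beside 10.5%. A listed region covered an annotated start of 24 of the 54 genes, among them Psmb9 and Rfxank through a neighbour's region. The matching share of all protein-coding genes is not given here, so this count has no background beside it. The most regions given to a gene were 4, for H2-Aa and H2-Q1, and 12 genes had 1.

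Of the members 50 lay on chromosome 17 and 13 elsewhere. This follows largely from the list, since its 34 H2-named genes are all on chromosome 17. The 50 lay between 33919426 and 37271200, a span of 3.35 Mb that the members themselves set. It held 131 listed regions in all, which is 39.1 per Mb, beside 8.54 per Mb over chromosome 17 and 5.49 per Mb over chromosomes 1 to 19, X and Y. Of these 131, 8 had a negative effect, and 7 of the 8 were not members. The median effect of members was 0.91 on chromosome 17 and 1.09 elsewhere.

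Short consensus sequences were counted in the central 300 bp of each region, on either strand. For regions narrower than 300 bp, among them 19 members, this window takes in flanking sequence, so a counted match can lie outside the region. At the 32 member promoters the NF-kB consensus was present in 31.3%, beside 6.94% of the 7849 listed promoter regions. The ISRE core was present in 18.8% beside 1.52%, and the IRF consensus, which can overlap it on the other strand, in 15.6% beside 2.94%. NF-Y was present in 46.9% beside 32.5%. The remaining consensus sequences differed less: RFX was present in 12.5% beside 11.6%, TGACG in 34.4% beside 32.3%, AP-1 (TGANTCA) in 6.25% beside 4.89%, STAT (TTCNNNGAA) in 3.13% beside 6.15% and SP (GGGCGG) in 53.1% beside 65.6%. The ETS consensus CCGGAAGT was found in the central 300 bp of 0 of 32 member promoters, beside 5.66%. Over whole regions it was present in 3.17% of all members, namely those at the starts of H2-D1 and H2-K2, beside 5.88% of all listed regions. Among the 27 single-copy member promoters NF-kB was present in 25.9% beside 7.04%, and the ISRE core in 14.8% beside 1.38%. For NF-Y these shares were 40.7% and 32.2%. Promoters of related sequence are not independent in either count: H2-K1, H2-D1 and H2-Q4, all single-copy, were 81.2 to 88.1% identical over the 200 bp compared, and H2-K2 was 71.7 to 76.3% identical to them. The ISRE core was added after these sequences were seen, so its shares are a description.

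**Figure D4:**
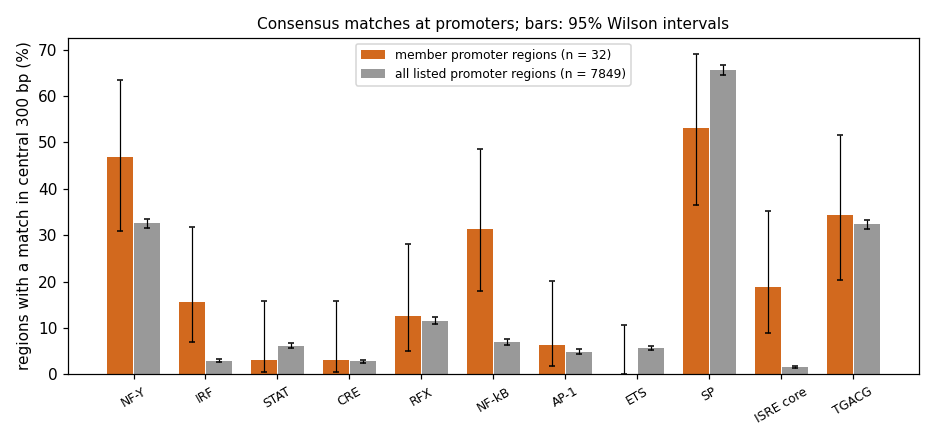
Share of regions with a match in the central 300 bp (y axis, percent) for 11 consensus sequences (x axis), at the 32 member promoters (orange) and at all 7849 listed promoter regions (grey). Error bars are 95% Wilson intervals over regions. The shares of members stand highest above those of all promoters for NF-kB and the ISRE core, and the ISRE core and TGACG were added after the members' sequences were seen, so the bars are no test.

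The NF-kB match followed by AGTTTC 17 to 20 bp on was the rarer arrangement. Counted over whole regions, it was present in 13 of all 14973 listed regions (0.0868%) and 7 of these 13 were members. In the central 300 bp it was present in 9 listed regions, 4 of them members. Near starts, it occurred within 500 bp at 8 of 21827 protein-coding genes (0.0367%), of which H2-D1, H2-K1, H2-Q4, H2-Q6 and H2-Q7 were in the list and had a listed region over the start. Whether the remaining genes of the 8 had such a region is not given here. Both arrangements were defined from the members' own sequences, so these counts describe where they occur and are no test.

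Beyond the list, 40 further genes of interferon signalling, proteasome, chaperones, lysosomal proteases and transcription factors of the pathway were examined. Of these, 38 had an annotated protein-coding start under that symbol. At least 1 positive region was given to 28 of the 38 (73.7%), beside 36.7% of protein-coding genes, and a negative one to 5 (13.2%), beside 10.5%. Their 52 regions had a median effect of 0.75, and 47 were positive. The NF-Y subunit genes differed at their promoters, with 1.15 for Nfya, 1.77 for Nfyc and -3.11 for Nfyb. Jak2, a kinase of the interferon gamma receptor, had -2.11 at its promoter, whose GC content of 75.4% lay outside the range of the MHC members. The Nfyb and Nfyc promoters, with GC contents of 68.2% and 68.4%, also lay outside that range. Irf1, an interferon-induced activator of class I genes, had 1.23 at its promoter.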

How the data were processed

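The authors deposited 1 table of regions on mm10, made per the file headers from the alignments of both output libraries together. The columns the authors deposited are a signed effect (a score), its p-value, and that p-value after adjustment (q-value). Not given in the sources used here were the aligner, the region caller, the test, the normalization and the depth, so a value's precision is known through the authors' p-value alone. Starts in it count from 1, as its width column shows. The number tested, 114722, was inferred from p, q and rank (82.2% of regions gave this number). The 21 regions on scaffolds were left out of comparisons.

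Starts were those of protein-coding transcripts in GENCODE vM21 basic; promoter regions used basic transcripts of all genes. Copies were matches of the central 300 bp (with flanks where narrower) to chromosomes 1 to 19, X, Y and M by minimap2 2.31 (k = 19, w = 10, N = 50, p = 0.5), identity being matching bases over alignment length. Counting, motif search and shares used Python 3.11.15, pandas 2.3.3, pysam 0.24.0 and Biopython 1.88, tested on simulated data. No test was made over members, since 1 group with no replicate values allows none. Members and lists were chosen with earlier results of these data known; the ISRE core, TGACG and the motif pairs were added after the sequences were seen. By rule, the report gives effects, coordinates and adjusted p for the 8 highest and 8 lowest members, every region of 13 chosen genes and the extremes of each role. Alternatives were an adjusted p under 0.001, start distances of 50 and 20 kb, gene starts, merging within 500 bp, single-copy regions, promoter windows of 500 and 2000 bp, copy identities of 90 and 98%, and motifs over the whole region. The values of 1 further gene of the pathway are not reported here.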

Additional observations from a re-analysis of the deposited data

How the results depend on the processing

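With an adjusted p under 0.001, 52 members remained, 52 of 52 were positive (100%), and at promoters 29 of 29 (100%), since the negative H2-Q10 region and the listed regions of weaker p fell out. At 98% identity the multi-copy share was 7.94% instead of 25.4%, since most copies in the H2 complex are 95 to 98% identical; at 90% it was 31.7%. Of the 9 members with an effect over 2, 9 were multi-copy at 90 and 95% identity and 3 at 98%. Over whole regions NF-Y was present in 50.8% of members (48.4% of all listed) and RFX in 23.8% (24.7%). The number of members ranged from 47 (single-copy alone) to 63, their median effect from 0.84 to 1.09, and the genes with a region from 28 to 33 over the alternatives. No paired analysis was possible because the table holds 1 value per region for both libraries together. Values per library, depth and the input were not analysed here, so effects of near-identical copies and the differences between promoters carry no error.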
